A study of Mus musculus with 34 samples.

Results

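Mediator is a large protein complex that carries signals from transcription factors at enhancers to RNA polymerase II at promoters, and p300 and CBP are its frequent partners there. The genes described here are those whose symbol is Med followed by a number (with or without a final l), together with Ccnc, Cdk8, Cdk19, Ep300 and Crebbp. The culture tables hold 36 such identifiers under 35 symbols among 37145 genes, Med20 being listed under 2 identifiers between which reads may be split, and the section tables hold 35 among 46785. All 35 symbols were found in both kinds of table. The tables were made by RNA sequencing in a mouse study of the long non-coding RNA Evx1as. The knock-in cultures (3) are embryonic stem cells of a line labelled 4x polyA KI, and the wild-type cultures (3) are the line CJ9. Both are of strain 129S1/SVImJ and were sampled at day 4 after withdrawal of LIF, a cytokine that holds stem cells in their undifferentiated state. Each genotype is 1 line, so p-values between cultures measure the spread between cultures of those lines and may hold only technical spread. The embryo sections were cut by laser from C57/B6 embryos of embryonic day 7. They are homozygous (Evx1as-/-) or heterozygous (Evx1as+/-), so the comparison sections also carry the mutant allele, and what that allele changes is not stated in the labels. Primitive streak was taken from 5 homozygous and 6 heterozygous sections, mesoderm from 5 homozygous and 3 heterozygous sections, and anterior epiblast from 1 section of each genotype. Streak and mesoderm sections carry a layer number between 1 and 11. No label ties a section to an embryo, so sections may share an embryo and every p-value over sections is too small. In such bulk RNA, fewer cells of a type and less RNA per cell cannot be told apart.

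As background, the head and middle modules of Mediator contact the polymerase, the tail receives activators, and Med14 is the backbone that joins the modules. A separate kinase module, made of Cdk8 or Cdk19 with cyclin C (Ccnc), Med12 or Med12l and Med13 or Med13l, docks onto the core and blocks polymerase binding while it is there. The paralogues p300 (Ep300) and CBP (Crebbp) acetylate histones at active enhancers. In the mouse embryo both acetyltransferases are needed for normal development, and mouse mutants of Med1, Med12 or Med31 die before birth.

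Values are FPKM, in which fragments are divided by transcript length and library total, so levels of different genes are compared per length. Cultures had 12758 to 13073 genes at 1 FPKM or more, and sections 6806 to 10959. Sequencing depth is not given. A single gene, Yam1, took 1.07% to 38.3% of FPKM in the section libraries and 0% in cultures. FPKM is relative to the library total, so section levels of all other genes depend on this share. Evx1as (5730457N03Rik) lay between 0.0674 and 0.137 FPKM in knock-in cultures and between 3.94 and 5.99 FPKM in wild-type cultures. In streak it lay between 0 and 0.159 FPKM in homozygous sections and between 0 and 4.57 FPKM in heterozygous ones, where the ranges overlap. The streak marker T reached 50.8 to 105 FPKM in homozygous and 133 to 297 FPKM in heterozygous streak sections, against at most 22.2 FPKM in any mesoderm section. Nkx1-2 also averaged lower in homozygous than in heterozygous streak. Eomes, Mixl1, Fgf8 and Wnt3 averaged higher in homozygous streak, Eomes at 48.4 FPKM against 15.0 FPKM in heterozygous streak. Eomes overlapped between regions, at 17.3 to 26.9 FPKM in homozygous mesoderm and 20.2 to 59.9 FPKM in homozygous streak. The mesoderm marker Hand1 averaged 7.39 FPKM in homozygous and 5.23 FPKM in heterozygous mesoderm. Hand1 averaged under 1 FPKM in streak of either genotype. Its single values overlapped, at 0.783 to 29.989 FPKM in homozygous mesoderm and up to 3.68 FPKM in homozygous streak. Pdgfra and Kdr also averaged higher in mesoderm of both genotypes. For Mesp1, Lefty2, Tbx6 and Snai1 the higher region differed between genotypes. Mesp1 averaged 44.5 FPKM in homozygous streak and 33.1 FPKM in homozygous mesoderm, but 23.2 and 35.4 FPKM in the heterozygous regions. Summed over 7 mesoderm markers, mesoderm sections had 37.5 to 163 FPKM and streak sections 6.68 to 177 FPKM, so this list overlaps between regions.

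The sequences just upstream of 5 genes are shown because their calls between the cultures held when changes were taken relative to their own chromosomes: Cdk8, which rose in knock-in cultures, and Med7, Med6, Med28 and Med11, which fell. Each run holds 100 bases, 5′ to 3′ on the strand of the gene, ending before the first base of any RefSeq or GENCODE exon of the gene. They are RefSeq sequences of GRCm38.p6 at chr5:146231130-146231229 for Cdk8, chr11:46436825-46436924 for Med7, chr5:45520129-45520228 for Med28 and chr11:70451818-70451917 for Med11, on the plus strand, and at chr12:81595009-81595108 for Med6 on the minus strand. Capitals mark matches on either strand to the motifs listed next.
Cdk8: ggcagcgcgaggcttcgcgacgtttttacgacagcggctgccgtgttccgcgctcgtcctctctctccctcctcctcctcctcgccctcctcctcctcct
Med7: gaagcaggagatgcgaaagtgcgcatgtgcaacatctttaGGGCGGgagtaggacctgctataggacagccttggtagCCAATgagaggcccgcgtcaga
Med6: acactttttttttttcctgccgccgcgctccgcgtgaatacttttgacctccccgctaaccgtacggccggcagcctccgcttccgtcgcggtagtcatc
Med28: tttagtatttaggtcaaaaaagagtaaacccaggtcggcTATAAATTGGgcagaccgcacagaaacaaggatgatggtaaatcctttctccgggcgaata
Med11: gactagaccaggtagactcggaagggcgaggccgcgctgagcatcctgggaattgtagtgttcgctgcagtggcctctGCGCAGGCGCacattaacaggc

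In these windows Med7 holds an SP1 motif and a CCAAT box, Med28 a TATA box that shares a base with a CCAAT box on the other strand, and Med11 an NRF1 motif. Cdk8 and Med6 hold none of the 7 motifs there. Over the whole 250 bases before the start, 30 of the 35 genes had a RefSeq promoter. Cdk19, Med8, Med23, Med24 and Med30 have no entry. GGGCGG (SP1) was in 70.0% of the 30 and in 35.4% of all 27025 genes with a promoter. CCGGAAG (ETS) was in 20.0% against 7.8% of all genes, and the NRF1 motif in 13.3% against 4.2%. For CCAAT the shares were 36.7% and 37.5%, for TATAAA 10.0% and 14.3%, for CACGTG (E-box) 6.7% and 6.9%, and for AAGATGGC (YY1) 3.3% and 1.8%. Both strands were searched, and CACGTG reads alike on both. The background holds all genes with a promoter whatever their expression, and no share over expressed genes alone was taken. The shares were not tested, and a match describes letters, not a bound factor.

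Nearly the whole complex was expressed in culture, and the sections held less of most members. In culture 33 or 34 of the 36 identifiers reached 1 FPKM in each library, and Med12l and Med21 stayed below it throughout. Sections had 20 to 30 of 35 at 1 FPKM. The highest member over the 19 streak and mesoderm sections was Med28, a head subunit, with a mean of 58.5 FPKM. In culture the order depended on the line. Ep300 was highest in knock-in cultures, at 67.7 ± 4.28 FPKM beside 45.7 ± 7.80 FPKM for Med28, and Med28 was highest in wild-type cultures, at 74.0 ± 12.5 FPKM beside 49.8 ± 3.68 FPKM for Ep300 (SD, n = 3 each). Med10, a middle subunit, followed in sections at 34.8 FPKM, with 29.04 FPKM in culture. By modules, all 11 head members, all 5 tail members, Med14 and both acetyltransferases had lower means in sections than in culture. Only 5 of 9 middle members and 6 of 7 kinase module members did. The 2 kinds of table were normalised separately and use different gene models, so these differences were not tested. The background was 11129 genes listed in both kinds of table that have a protein-coding transcript. Each averaged 1 FPKM or more in cultures or in sections. Over these 11129 genes the median log2 difference (sections minus cultures, FPKM + 1) was -1.51, and that of the 35 members was -1.26.

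Single members departed far from that median. The mean of Ep300 was 1.09 FPKM in sections (0.455 to 3.30) and 58.7 FPKM in culture (47.3 to 71.4), a difference at or below which only 1.47% of the genes lay. Med12, the kinase module subunit that activates cyclin C and Cdk8, was at 0.138 FPKM in sections, where no library exceeded 0.474, and 27.2 FPKM in culture. For Med12 the share of genes at or below was 1.82%. Med21, a small middle subunit, went the other way, with 15.4 FPKM in sections (3.68 to 40.2) and 0.499 FPKM in culture (0.310 to 0.815), and 99.61% of genes lay at or below its difference. Ccnc had 4.62 FPKM in sections and 2.18 FPKM in culture. Long transcripts were low in sections: the 10 members whose longest coding transcript exceeds 5000 nucleotides had section means of 0.0465 to 4.72 FPKM, and all 10 were lower than in culture. Of the 25 shorter members, with section means of 0.442 to 58.5 FPKM, 20 were also lower. Across the 35 members, Spearman's rho between transcript length and section level was -0.69, and with culture level it was -0.14. Between length and the difference it was -0.38 for the members and -0.23 for the 11129 genes. These are correlations across genes, which share libraries and are not independent, and the part of length in the levels was not tested.

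**Figure D1:**
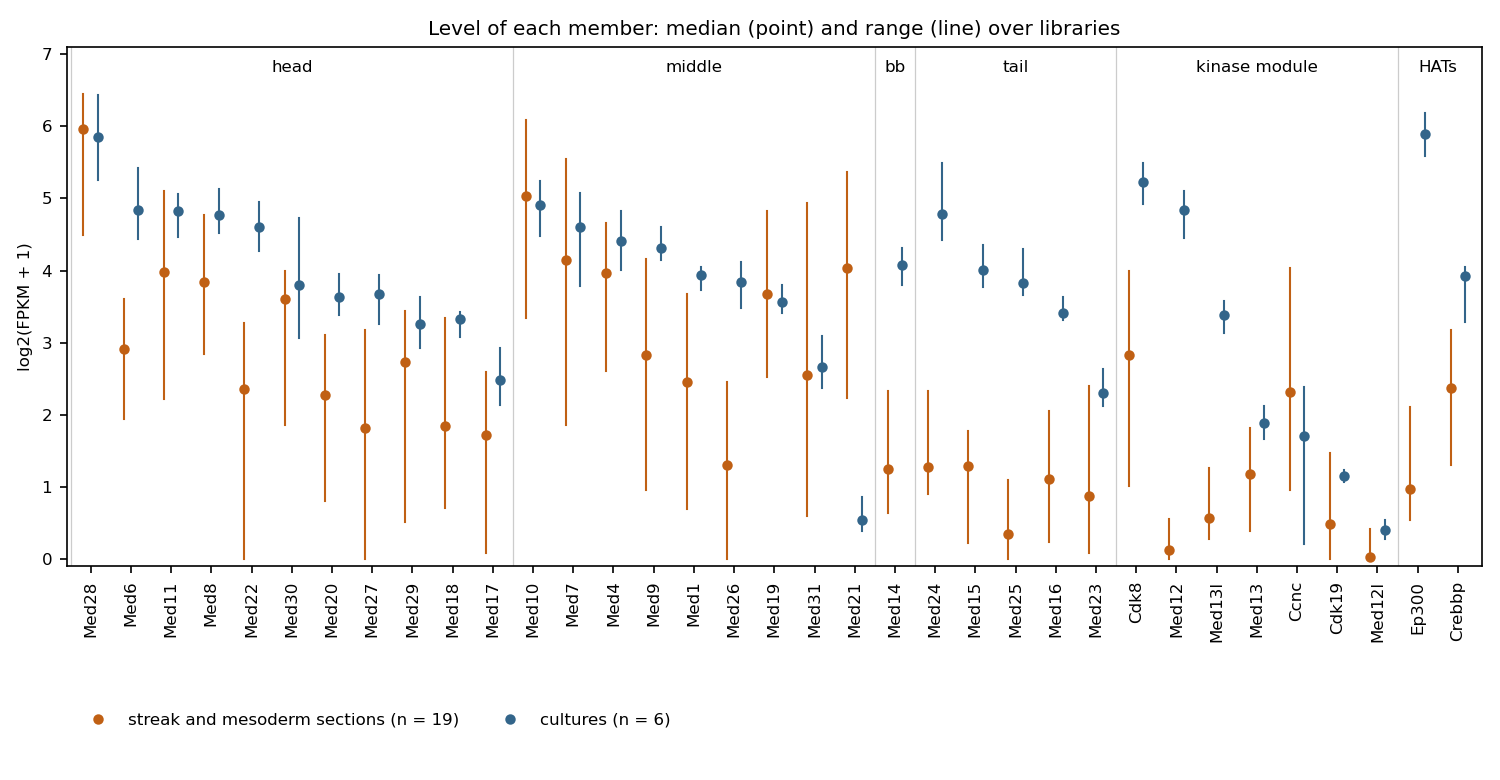
Level of each of the 35 members as log2(FPKM + 1) on the vertical axis, with the median (point) and range (line) over 19 streak and mesoderm sections (orange) and 6 cultures (blue), ordered by module (bb, backbone; HATs, acetyltransferases). Med28 is high in both settings, while Ep300 and Med12 are low in sections and Med21 is low in culture.

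The first comparison sets knock-in against wild-type cultures. Calls among the members went both ways. Med30 (head), Cdk8 (kinase) and Ep300 were higher in knock-in cultures. The head subunits Med6, Med11 and Med28 and the middle subunits Med4, Med7 and Med26 were lower. Of 34 member identifiers tested, 3 rose (8.8%) and 6 fell (17.6%) at an adjusted p under 0.05 by limma with Benjamini-Hochberg adjustment over 13133 genes. Among all genes 16.2% rose and 16.2% fell, 32.4% in all, so at 26.5% the members' share of calls was not above the background. Groups did not overlap for 3 members above and 10 below, against 24.4% and 24% of all genes. The median log2 change was -0.09 for members and 0.02 for all genes. Log2 changes were negative for 23 of the 34 members. They were positive for 32.4% of the members and for 51.2% of all genes. Summed over the 36 identifiers, the level was 554 to 607 FPKM in knock-in and 609 to 669 FPKM in wild-type cultures.

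Med7, a middle subunit, changed most among those that fell. It had 15.0, 12.8 and 19.7 FPKM in knock-in cultures, against 32.7, 27.9 and 27.9 FPKM in wild-type cultures. Every knock-in value lay below every wild-type value, with a log2 change of -0.87 ± 0.17 (SE, limma adjusted p = 0.00783). Med6, a head subunit, had 22.2, 20.7 and 23.9 FPKM in knock-in and 41.8, 31.8 and 33.7 FPKM in wild-type cultures, a log2 change of -0.66 ± 0.14 (limma adjusted p = 0.0112). Med28, also a head subunit, had 37.3, 47.0 and 52.8 FPKM in knock-in and 75.2, 85.8 and 61.0 FPKM in wild-type cultures. Its groups did not overlap and its log2 change was -0.68 ± 0.17 (limma adjusted p = 0.0209). Med11, which pairs with Med22 in the head, averaged 22.2 ± 1.57 FPKM in knock-in and 31.6 ± 0.641 FPKM in wild-type cultures (SD, n = 3 each), a log2 change of -0.49 (limma adjusted p = 0.0152). Med26, which recruits elongation factors, averaged 11.1 ± 0.777 FPKM in knock-in and 15.8 ± 0.481 FPKM in wild-type cultures, with a log2 change of -0.48 (limma adjusted p = 0.0230). Med4, a middle subunit, averaged 16.5 ± 1.98 FPKM in knock-in and 24.1 ± 2.81 FPKM in wild-type cultures, with a log2 change of -0.52 (limma adjusted p = 0.0281).

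Among the members that rose, Med30, a metazoan head subunit, had 25.4, 18.3 and 13.7 FPKM in knock-in cultures, against 7.49, 12.0 and 7.39 FPKM in wild-type cultures. The groups did not overlap, but the lowest knock-in value lay close to the highest wild-type value, and the log2 change was 1.01 ± 0.26 (SE, limma adjusted p = 0.0210). Cdk8, the main kinase of the module, had 44.1, 42.3 and 40.9 FPKM in knock-in and 32.3, 29.2 and 31.1 FPKM in wild-type cultures. The groups were tight and apart, with a log2 change of 0.45 ± 0.11 (limma adjusted p = 0.0181). Ep300 had 68.6, 63.0 and 71.4 FPKM in knock-in and 47.3, 48.0 and 54.0 FPKM in wild-type cultures. All knock-in values were higher, with a log2 change of 0.44 ± 0.11 (limma adjusted p = 0.0228).

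The log2 change of Crebbp had the opposite sign to that of its paralogue Ep300, but not relative to the median changes of their chromosomes, where Crebbp was at -0.48 (limma adjusted p = 0.0611) and Ep300 at -0.06 (limma adjusted p = 0.737). Crebbp had 10.3, 8.78 and 13.1 FPKM in knock-in cultures, against 15.2, 15.5 and 15.3 FPKM in wild-type cultures. The groups did not overlap, the log2 change was -0.49 ± 0.16 and the adjusted p was 0.0509 by limma, just above the threshold. After every library was scaled by its median ratio to the geometric mean library it was 0.0469, and over all alternatives tried it ranged between 0.0179 and 0.165. The other members that define the modules did not pass. Med1, which binds nuclear receptors, had a log2 change of -0.09 (limma adjusted p = 0.640), Med14 one of 0.20 (limma adjusted p = 0.362) and Med12 one of 0.03 (limma adjusted p = 0.924). Med13, which links the kinase module to the core, had -0.14 (limma adjusted p = 0.596) and Cdk19 had 0.08 (limma adjusted p = 0.760). Ccnc had 2.52, 0.156 and 1.72 FPKM in knock-in and 2.13, 4.20 and 2.37 FPKM in wild-type cultures. Its groups overlap, knock-in replicate 2 stands lowest, and the log2 change of -0.77 ± 0.42 did not pass (limma adjusted p = 0.193). Med21 and Med12l fell below the filter of 1 FPKM and were not tested.

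By module, 1 of 12 tested head identifiers rose and 3 fell, and none of 8 middle members rose and 3 fell. All 8 middle members had negative log2 changes, as had 23 of all 34 members, while 51.2% of all genes were positive. Of the middle calls, Med4 and Med26 lie on chromosomes with median changes of -0.39 and -0.34. None of the 5 tail members passed, in 6 tested kinase module members 1 rose, and of the acetyltransferases 1 rose. In related machinery, counts are to be read against the 16.2% of all genes that rose and the 16.2% that fell. No list was tested as a whole or against Mediator, and the changes are not relative to the chromosome medians given next. Of 12 RNA polymerase II subunits 3 rose and none fell, with a median log2 change of 0.36. Polr2f averaged 55.2 FPKM in knock-in and 31.1 FPKM in wild-type cultures (log2 change 0.82), and Polr2h averaged 33.9 FPKM in knock-in and 19.0 FPKM in wild-type cultures (log2 change 0.81). Of 32 tested identifiers of general initiation factors 4 rose and none fell, among them Taf9 (log2 change 0.99) and Taf7 (0.70). Cohesin, the ring complex that works with Mediator at enhancer loops, had 4 of 10 higher and 1 lower, with Rad21 at a log2 change of 0.76 and Mau2, a loader subunit, at -0.76. Of 12 genes of pause release and BET proteins 1 rose and 3 fell, Aff1 most (log2 change -1.30). Among 7 other acetyltransferases and coactivators none rose and 1 fell, Ncoa2 (log2 change -0.66), and among 8 deacetylases 1 rose, Hdac2 (log2 change 0.91), and none fell.

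**Figure D2:**
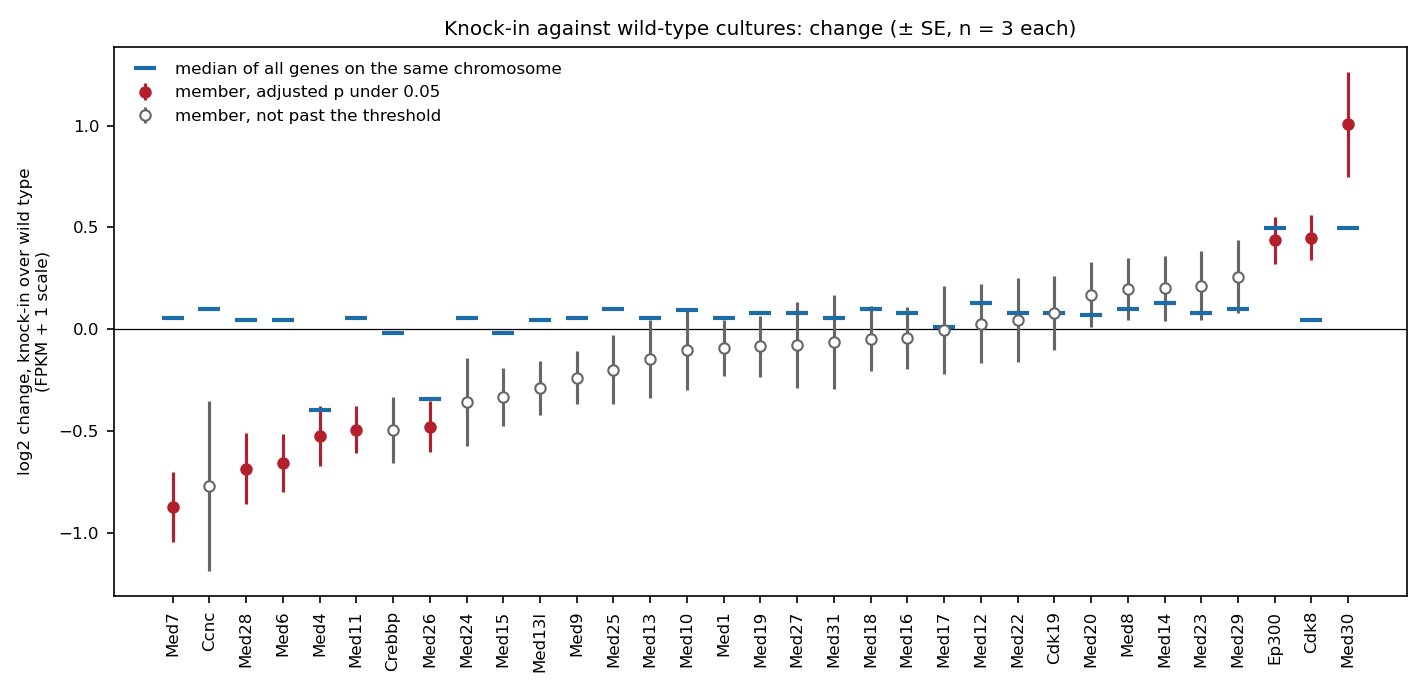
Log2 change of knock-in over wild-type cultures (FPKM + 1 scale, ± SE, n = 3 each) for the tested members under 33 symbols, lowest to highest, with calls filled in red and the median change of all genes on the same chromosome as a blue bar. Ep300, Med4 and Med26 sit near the bar of their chromosome, while Cdk8 sits above its bar and Med7, Med28, Med6 and Med11 sit below theirs.

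Several of these changes ran with those of the whole chromosome. On chromosome 15, which holds Ep300 and Med30, the median log2 change of 504 tested genes was 0.50, and on chromosome 14 (Med4) and chromosome 8 (Med26) it was -0.39 and -0.34. Relative to these medians Ep300 was at -0.06, Med4 at -0.13, Med26 at -0.13 and Med30 at 0.51, and none of the 4 passed (limma adjusted p = 0.737, 0.533, 0.449 and 0.175). Over all alternatives the adjusted p of Ep300 ranged between 0.0241 and 0.737, that of Med4 between 0.0133 and 0.533, that of Med26 between 0.0104 and 0.449 and that of Med30 between 0.0143 and 0.175. Cdk8 (0.40), Med7 (-0.93), Med28 (-0.73), Med6 (-0.70) and Med11 (-0.55) passed on this relative scale, so 5 members were called. A difference in chromosome number between these 2 lines and the knock-in itself cannot be told apart here, which bears on Ep300, Med30, Med4 and Med26.

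Leaving out wild-type replicate 1, 2 or 3 gave 3, 4 and 6 called members, and leaving out knock-in replicate 1, 2 or 3 gave 4, 4 and 9. Med7 and Med6 passed in all 6 of these fits, with limma adjusted p up to 0.0322 and 0.0466. The table names carry a token for a lane, and lane 3 is the only one with both lines (2 knock-in and 1 wild-type library). Within it the log2 differences, with no test, were 0.48 for Ep300, 0.50 for Cdk8, 0.37 for Med30, -0.77 for Med7, -0.77 for Med28, -0.50 for Med6, -0.45 for Med11, -0.67 for Med4, -0.47 for Med26 and -0.49 for Crebbp. Cell state markers moved with the lines as well. The summed level of 7 stem cell and epiblast markers was 1598 to 1848 FPKM in knock-in and 583 to 764 FPKM in wild-type cultures, with 6 of the 7 above without overlap and none at 0. The 6 streak markers summed to 89.2 to 109 FPKM in knock-in and 293 to 432 FPKM in wild-type cultures, with 4 below. The 7 mesoderm markers summed to 39.4 to 54.7 FPKM in knock-in and 58.5 to 104 FPKM in wild-type cultures, with 5 below. The 5 listed trophoblast markers summed to 104 to 134 FPKM in knock-in and 376 to 659 FPKM in wild-type cultures, with 2 below and 1 above. The 4 neuroectoderm markers were low but apart, with sums of 2.99 to 7.58 FPKM in knock-in and 0.43 to 0.75 FPKM in wild-type cultures, with 2 above and 1 at 0 throughout. The 5 feeder fibroblast markers summed to 18.7 to 21.3 FPKM in knock-in and 7.03 to 15.9 FPKM in wild-type cultures, with 1 above and 3 below. The 8 visceral endoderm markers summed to 8.96 to 11.4 FPKM in knock-in and 12.3 to 25.6 FPKM in wild-type cultures, with 2 above and 1 below. The sums of the 5 blood and endothelium markers overlapped, at 0.87 to 2.83 FPKM in knock-in and 0.89 to 1.91 FPKM in wild-type cultures. The part of these states in the changes of the members was not tested.

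Paralogue ratios within a library do not depend on the scaling of that library beyond the pseudocount, which weighs most where levels are low. The log2 ratio of Crebbp to Ep300 was -2.56 ± 0.19 in knock-in cultures and -1.64 ± 0.11 in wild-type cultures (SD, n = 3 each). The groups did not overlap and differed by -0.93, with an exact two-sided permutation p of 0.1, the smallest that 3 against 3 allows, and 0.2 after adjustment over the 4 ratios. With the median change of each gene's own chromosome taken off, the difference was -0.42. The ratio of Cdk19 to Cdk8 was -4.25 ± 0.07 in knock-in and -3.88 ± 0.06 in wild-type cultures (SD, n = 3 each), also without overlap, with the same exact p of 0.1 and adjusted 0.2. Those of Med13l to Med13 and of Med12l to Med12 overlapped between the lines, at 1.39 against 1.53 and at -4.47 against -4.35.

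The listed order of paralogues was not the same in the culture and in the section values. Ep300 exceeded Crebbp in all 6 cultures, while Crebbp exceeded Ep300 in all 19 streak and mesoderm sections and both anterior epiblast sections. Med13l exceeded Med13 in all 6 cultures and in 3 of the 19 sections. Cdk8 exceeded Cdk19 in every one of these libraries. Med12 exceeded Med12l in all 6 cultures, but in sections both were near the floor, with Med12 listed at 0 in 3 and Med12l in 9 of the 19. Because the tables were made separately, these orders are given within each library and were not tested between settings. An order within a library does not depend on its scaling. It may depend on the gene models, which differ between cultures and sections, and their part was not tested.

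**Figure D3:**
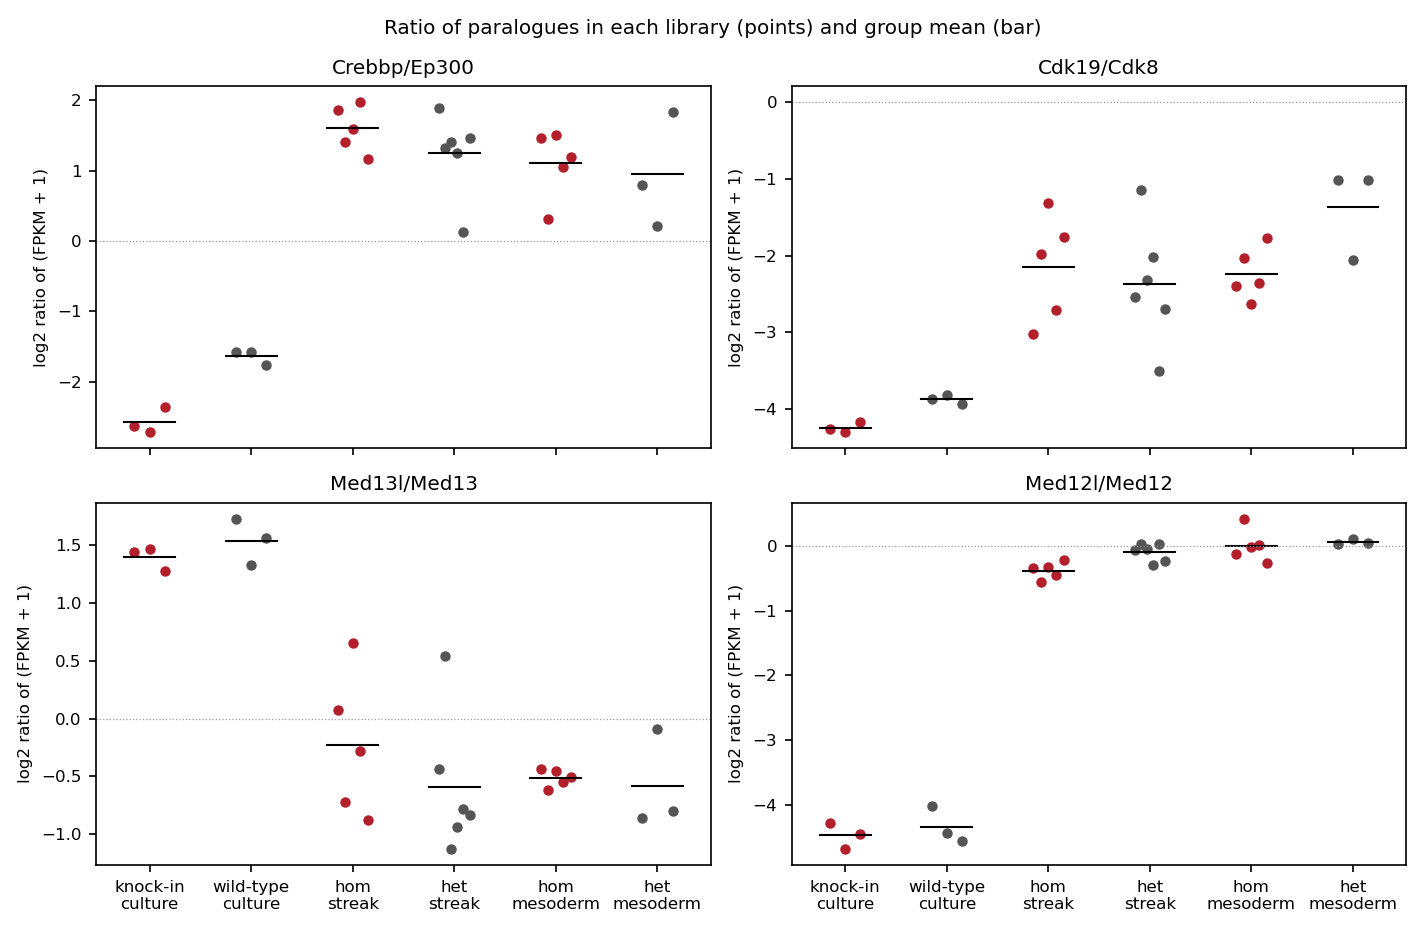
Log2 ratio of (FPKM + 1) of 4 paralogue pairs, 1 point a library with the group mean as a bar, in cultures and in streak and mesoderm sections. The Crebbp to Ep300 ratio lies below 0 in every culture and above 0 in all 19 sections.

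Next, homozygous streak sections were set against heterozygous ones. No member passed the threshold in either direction among 30 tested by limma, where 2 of 9932 genes (0.0201%) did. At an unadjusted p under 0.05 there was 1 member, Med1, beside 10.2% of all genes. No member was without overlap between genotypes, where 0.846% of all genes were. Med1 had 10.3, 5.55, 7.34, 5.83 and 5.40 FPKM in homozygous layers 1, 5, 7, 9 and 11. In heterozygous streak it had a lowest value of 0.617, a median of 3.56 and a highest of 11.7 FPKM. The groups overlap, and the log2 change was 0.92 ± 0.38 (SE, limma adjusted p = 0.474). Log2 changes were positive for 27 of the 30 members, and for 72% of all genes. The median was 0.27 for the members and 0.25 for all genes.

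Both acetyltransferases overlapped between genotypes in streak. Ep300 had 1.49, 0.955, 1.05, 0.915 and 1.32 FPKM in homozygous layers 1, 5, 7, 9 and 11, against a lowest of 0.923, a median of 0.985 and a highest of 3.30 FPKM in heterozygous sections. Crebbp had 8.02, 4.90, 7.02, 3.31 and 5.16 FPKM in the same homozygous layers, against 3.72, 4.36 and 6.15 FPKM as lowest, median and highest in heterozygous ones. Their log2 changes were -0.12 for Ep300 (limma adjusted p = 0.912) and 0.27 for Crebbp (limma adjusted p = 0.708). In the kinase module Ccnc had a log2 change of 0.49 (limma adjusted p = 0.648), Cdk8 of 0.06 (limma adjusted p = 0.968) and Med13 of -0.15 (limma adjusted p = 0.892). Med14 stood at 0.08 (limma adjusted p = 0.942). Med12 and Cdk19 did not reach the filter of 1 FPKM. Med12 was at 0.164 to 0.474 FPKM in homozygous and 0 to 0.279 FPKM in heterozygous streak, while Med12l was listed at 0 in all 5 homozygous sections and reached 0.0485 FPKM in heterozygous ones. The log2 ratio of Med12l to Med12 was -0.38 ± 0.13 (SD, n = 5) in homozygous and -0.09 ± 0.14 (SD, n = 6) in heterozygous streak. The exact two-sided permutation p was 0.0130, adjusted over 4 ratios to 0.0519, and it passes with a pseudocount of 0.1 or without homozygous layer 9 (adjusted over 4 ratios 0.0346 and 0.0381). Leaving out single sections gave adjusted values of 0.0381 to 0.114. All levels behind it are below 0.5 FPKM, under the pseudocount of 1. With Med12l at 0, the ratio in homozygous sections follows the level of Med12 alone, so it moves with library scaling.

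In mesoderm the genotypes were compared in 5 homozygous and 3 heterozygous sections. No member passed among 28 tested by limma, where 17 of 8695 genes (0.196%) did. At an unadjusted p under 0.05 there were 3 members, all higher in homozygous sections, beside 15.5% of all genes. Med7 had 4.56, 25.2, 19.5, 11.2 and 11.2 FPKM in homozygous layers 3, 5, 7, 9 and 11, against 3.73, 2.61 and 3.05 FPKM in heterozygous layers 7, 9 and 11. The groups did not overlap, and the log2 change was 1.79 ± 0.52 (SE, limma adjusted p = 0.162). Without homozygous layer 3 it passed (limma adjusted p = 0.0344, with 0.0344 to 0.557 over all alternatives). Med10 had 13.98, 32.98, 25.3, 23.8 and 31.7 FPKM in the homozygous layers and 10.4, 15.1 and 9.18 FPKM in the heterozygous ones, a log2 change of 1.19 (limma adjusted p = 0.205). For Med10 only the homozygous layer 3 value lies within the heterozygous range. Cdk8 had 4.03, 7.30, 5.84, 5.09 and 7.20 FPKM in the homozygous layers and 5.18, 1.03 and 1.02 FPKM in the heterozygous ones, a log2 change of 1.15 (limma adjusted p = 0.275). Med17, the head scaffold, was the other member without overlap, at 1.23 to 2.30 FPKM in homozygous and 0.0627 to 0.817 FPKM in heterozygous mesoderm, with a log2 change of 0.84 (limma adjusted p = 0.325). Non-overlap above held for 2 members and for 8.6% of all genes.

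The remaining members named did not pass in mesoderm. Crebbp had a log2 change of 0.32 (limma adjusted p = 0.750), Ccnc of 0.27 (limma adjusted p = 0.786), Med1 of -0.09 (limma adjusted p = 0.947), Med13 of -0.24 (limma adjusted p = 0.832) and Med14 of -0.20 (limma adjusted p = 0.842). Ep300, Med12 and Cdk19 were below the filter. Ep300 averaged 0.811 ± 0.191 FPKM (SD, n = 5) in homozygous and 0.784 ± 0.474 FPKM (SD, n = 3) in heterozygous mesoderm. The median log2 change was 0.30 for the members and 0.31 for all genes. None of the 4 paralogue ratios passed in mesoderm, the smallest exact two-sided permutation p being 0.107 for Cdk19 to Cdk8 (adjusted 0.429).

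**Figure D4:**
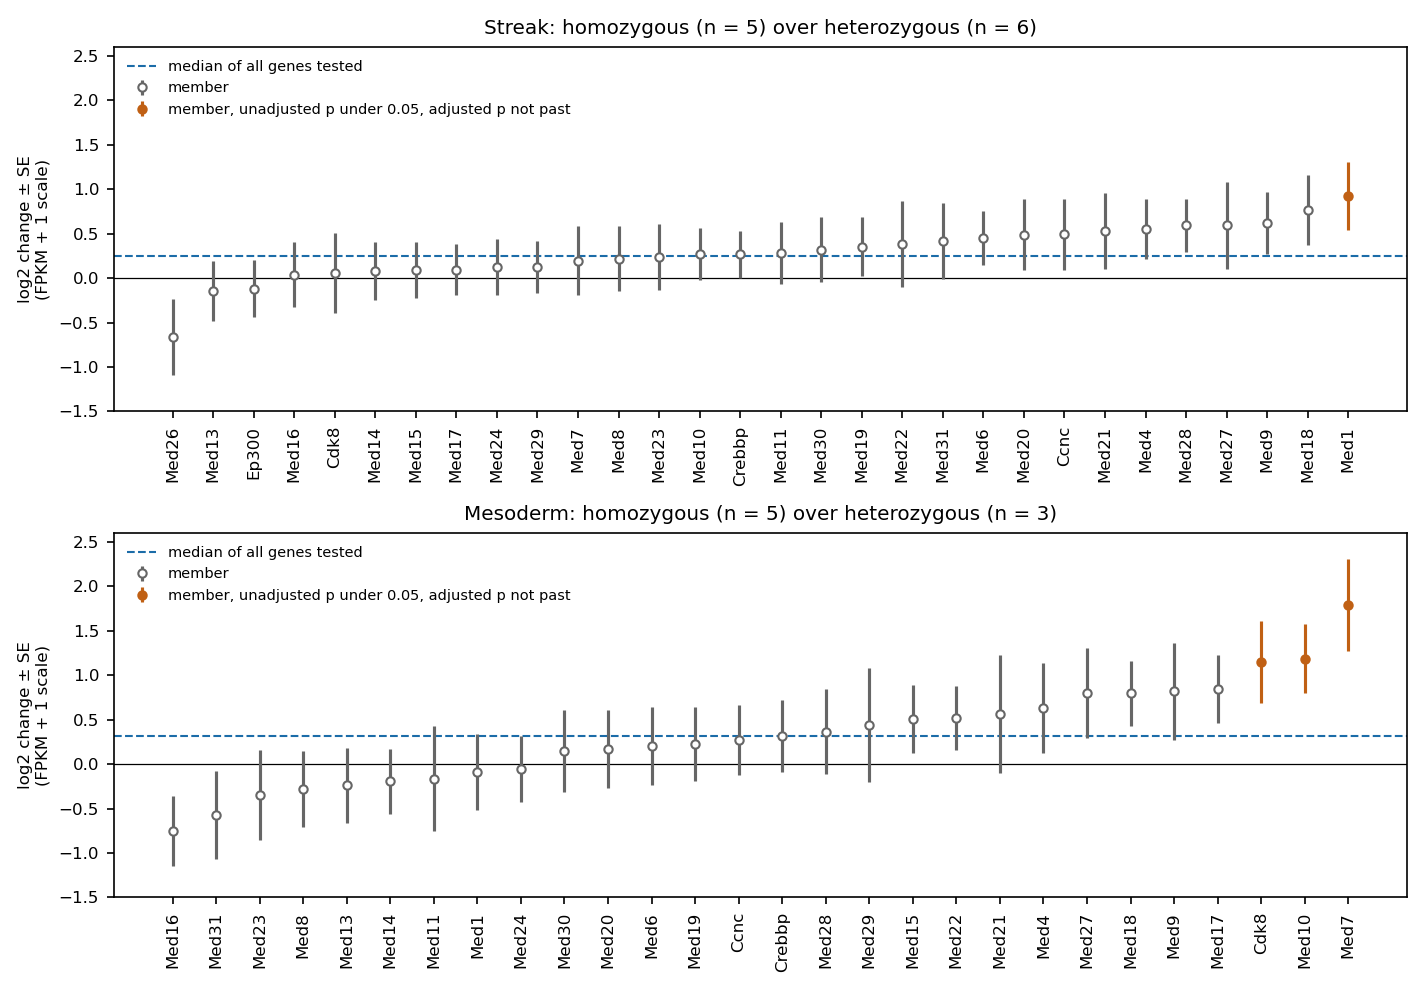
Log2 change (FPKM + 1 scale, ± SE) of homozygous over heterozygous sections for each tested member in streak (top) and mesoderm (bottom), with the median change of all genes as a dashed line. Most members lie around the dashed line, and Med1 in streak and Med7, Med10 and Cdk8 in mesoderm are the members at an unadjusted p under 0.05.

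With both regions in a single fit of 19 sections, 119 of 9527 genes (1.25%) differed between genotypes and no member did. The members at an unadjusted p under 0.05, all higher in homozygous sections, were Med18 (log2 change 0.77, limma adjusted p = 0.107), Med7 (0.82, limma adjusted p = 0.189), Med10 (0.55, limma adjusted p = 0.198) and Med17 (0.46, limma adjusted p = 0.235). At that level 20.2% of all genes stood. Med18, a head subunit, passed without heterozygous streak layer 5 (limma adjusted p = 0.0282, with 0.0282 to 0.293 over all alternatives), the section where it is highest among heterozygous ones at 9.09 FPKM. In this fit Ep300 was at -0.06 (limma adjusted p = 0.899), Crebbp at 0.21 (limma adjusted p = 0.591), Med1 at 0.41 (limma adjusted p = 0.480) and Med14 at -0.01 (limma adjusted p = 0.985). The kinase module stood at 0.48 for Cdk8 (limma adjusted p = 0.432), 0.42 for Ccnc (limma adjusted p = 0.395) and -0.18 for Med13 (limma adjusted p = 0.675). Whether the genotype difference itself differed between mesoderm and streak was tested as an interaction. No member passed (0% of all genes did), and 2 of 30 members, Med7 and Med17, reached an unadjusted p under 0.05 with interaction terms of 1.56 and 0.87 (limma adjusted p = 0.999 for both), beside 3.54% of all genes. In the lists of related machinery no gene passed between genotypes in streak, in mesoderm or in the fit of both regions, but after scaling by the median ratio Brd3 (0.61) and Supt5 (-0.76) passed in the last of these (limma adjusted p = 0.0419 and 0.0438).

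Other measures differed between the genotypes beside these values. Homozygous sections had more genes at 1 FPKM in mesoderm, 8420 to 9403 against 7025 to 8057 in heterozygous ones. Mitochondrial RNA took 2.26% to 3.21% of FPKM in homozygous and 3.92% to 5.53% in heterozygous streak, and 2.03% to 2.97% in homozygous and 3.38% to 5.42% in heterozygous mesoderm. The share of Yam1 overlapped between genotypes but varied widely. It was 7.32% to 22.2% in homozygous and 1.07% to 33.1% in heterozygous mesoderm. In streak it was 6.00% to 10.5% in homozygous and 1.76% to 19.4% in heterozygous sections. The summed level of 6 streak markers in mesoderm sections was 65.7 to 86.5 FPKM in homozygous and 12.8 to 40.9 FPKM in heterozygous ones, with 4 of the 6 above without overlap. The 8 visceral endoderm markers summed to 9.25 to 373 FPKM in homozygous and 1.32 to 8.85 FPKM in heterozygous mesoderm, with 3 above and 1 at 0 in all heterozygous sections. Stem cell and epiblast markers (7) summed to 63.5 to 171 FPKM in homozygous and 18.5 to 73.5 FPKM in heterozygous mesoderm. In streak they summed to 165 to 366 FPKM in homozygous and 70.9 to 181 FPKM in heterozygous sections. Above without overlap were Pou5f1 in both regions and Utf1 in mesoderm, and none of the 7 was below. The sums of the 6 streak markers overlapped in streak, with 1 above and 1 below. The part of these in the values of the members was not tested.

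Mesoderm was then compared with streak in the 7 pairs of sections that share a genotype and a layer. The middle subunit Med10 and cyclin C (Ccnc) were lower in mesoderm, 2 of 29 members tested (6.9%), and none was higher. Among all 9146 genes 8.62% passed, 8.04% lower and 0.579% higher. Med10 had 32.98, 25.3, 23.8 and 31.7 FPKM in homozygous mesoderm layers 5, 7, 9 and 11, against 46.8, 52.0, 59.5 and 29.6 FPKM in the streak of those layers. In heterozygous layers 7, 9 and 11 it had 10.4, 15.1 and 9.18 FPKM in mesoderm, against 27.9, 44.6 and 29.4 FPKM in streak. It was lower in 6 of 7 pairs, homozygous layer 11 being the exception, with a log2 change of -1.02 ± 0.23 (SE, limma adjusted p = 0.0249). Ccnc had 3.65, 3.15, 1.86 and 1.67 FPKM in homozygous mesoderm layers 5, 7, 9 and 11, against 6.52, 4.48, 7.93 and 6.22 FPKM in streak. In heterozygous layers 7, 9 and 11 it had 0.949, 3.49 and 1.28 FPKM in mesoderm, against 1.23, 5.56 and 4.11 FPKM in streak. It was lower in 7 of 7 pairs, with a log2 change of -0.87 ± 0.25 (limma adjusted p = 0.0496).

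The whole table leaned the same way, with a median log2 change of -0.34 for all genes and -0.38 for the members. After scaling by the median ratio, 63 genes and no member passed. On that scale the log2 change of Med10 was -0.59 and that of Ccnc -0.54, and over all alternatives the adjusted p ranged between 0.00428 and 0.249 for Med10 and between 0.0313 and 0.347 for Ccnc. Leaving out single pairs gave adjusted p values of 0.0228 to 0.0754 for Med10, lost without heterozygous pair 7 or 9 or homozygous pair 7 or 9. For Ccnc they were 0.0582 to 0.130, so the call was lost without any 1 of the 7 pairs. Neither acetyltransferase passed, with a log2 change of -0.36 for Ep300 (limma adjusted p = 0.379) and -0.51 for Crebbp (limma adjusted p = 0.172). After scaling by the median ratio the changes were -0.15 for Ep300 and -0.17 for Crebbp (limma adjusted p = 0.820 and 0.760). Both genes were lower in 7 of 7 pairs, as were 5 of the 29 tested members (17.2%) and 11.9% of all genes on the unscaled values. Med7 (-1.25, limma adjusted p = 0.0573) and Med17 (-0.94, limma adjusted p = 0.0582) had large changes that did not pass, and Med19 (-0.56, limma adjusted p = 0.106) was also at an unadjusted p under 0.05, where 27.3% of all genes stood. Cdk8 was at -0.54 (limma adjusted p = 0.360), Med14 at -0.27 (limma adjusted p = 0.542), Med1 at 0.09 (limma adjusted p = 0.856) and Med13 at 0.01 (limma adjusted p = 0.982). From the lists of related machinery 1 of 26 general initiation factors, Taf7, and 1 of 11 cohesin genes, Wapl, which releases cohesin, were lower in mesoderm (log2 changes -1.003 and -1.12), and no RNA polymerase II subunit passed. After scaling by the median ratio neither passed (log2 changes -0.59 for Taf7 and -0.71 for Wapl, limma adjusted p = 0.208 and 0.106).

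**Figure D5:**
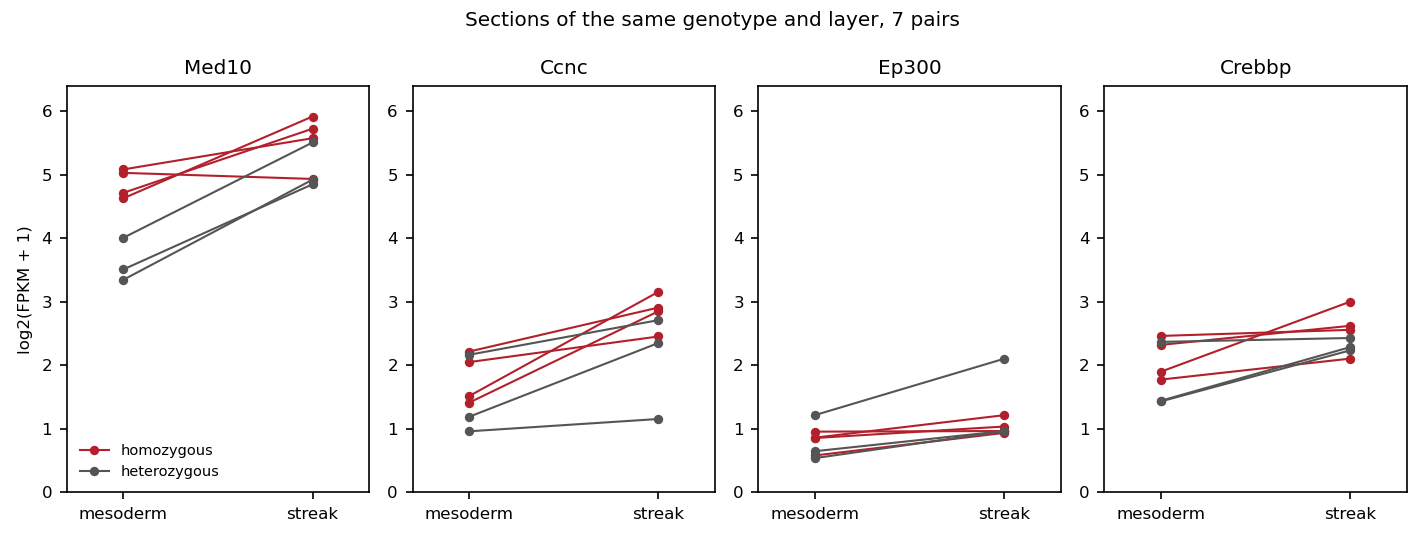
Level as log2(FPKM + 1) in mesoderm (left) and streak (right) sections of the same genotype and layer, 1 line for each of 7 pairs, for Med10, Ccnc, Ep300 and Crebbp. Lines rise toward streak in 6 of 7 pairs for Med10 and in 7 of 7 for the other 3 genes.

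The difference between regions was also tested for dependence on genotype, with 4 homozygous and 3 heterozygous pairs. No member passed this interaction, where 0.0109% of all genes (1 of 9146) did, and with 5 residual degrees of freedom a dependence on genotype may go undetected. At an unadjusted p under 0.05 stood 4 of 29 members (13.8%), beside 6.14% of all genes: Med1 (-1.41, limma adjusted p = 0.648), Med31 (-1.31, limma adjusted p = 0.778), Med7 (1.62, limma adjusted p = 0.778) and Cdk8 (1.44, limma adjusted p = 0.799). These terms are the mesoderm over streak change in homozygous minus that in heterozygous pairs.

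Along the layers of the streak no member passed a trend, where 0.0805% of 9932 genes did. The direction of the layer numbers is not given in the labels. At an unadjusted p under 0.05, beside 16.8% of all genes, stood 3 middle subunits with negative slopes: Med31 at -0.21 in log2 per layer (limma adjusted p = 0.131), Med26 at -0.15 (limma adjusted p = 0.256) and Med1 at -0.13 (limma adjusted p = 0.265). Med31 had 13.6 FPKM in homozygous layer 1 and 29.6 FPKM in heterozygous layer 1, against 4.12 to 6.93 and 0.515 to 5.17 FPKM in the other layers of each genotype. The high Med31 values are thus those of layer 1 in both genotypes. Layer 1 differed from the other streak layers in other measures too. Its sections had the most genes at 1 FPKM of each genotype, 10559 in homozygous and 10959 in heterozygous streak. Their trophoblast markers summed to 55.2 and 83.6 FPKM, against at most 13.3 FPKM in other streak layers. Their mesoderm markers had the lowest sums of each genotype, 6.68 and 16.2 FPKM. The part of this in the slopes was not tested. The slope per layer was -0.001 for Ep300 (limma adjusted p = 0.996), -0.05 for Crebbp (limma adjusted p = 0.473), -0.07 for Ccnc (limma adjusted p = 0.517), -0.04 for Cdk8 (limma adjusted p = 0.763), -0.02 for Med13 (limma adjusted p = 0.850) and -0.06 for Med14 (limma adjusted p = 0.529).

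Anterior epiblast had 1 section per genotype, so its values have no replicate check. Ep300 was at 0.649 FPKM in the homozygous and 2.29 FPKM in the heterozygous section, and Crebbp at 5.89 FPKM in the homozygous and 2.95 FPKM in the heterozygous one. Cdk8 had 10.6 FPKM in the homozygous and 3.74 FPKM in the heterozygous section, and Ccnc 4.42 FPKM in the homozygous and 1.55 FPKM in the heterozygous one. Med10 was at 43.9 FPKM in the homozygous and 6.44 FPKM in the heterozygous section. Med1 was close, at 4.12 FPKM in the homozygous and 4.48 FPKM in the heterozygous section. In the homozygous section Med13 had 1.10, Med14 1.95 and Cdk19 0.168 FPKM, and in the heterozygous section Med13 had 1.72, Med14 0.491 and Cdk19 0.110 FPKM. Med12 was listed at 0 in the homozygous section and had 0.131 FPKM in the heterozygous one.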

How the data were processed

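Values are in FPKM as deposited by the authors, 1 table for each of 30 libraries of the 34 samples, in the column format of Cufflinks per the file headers. The other 4 samples are not analysed here. The submitters' processing notes name CASAVA, TopHat2 2.0.11 and mm10. The tool that made the values is not given in the sources used here. Positions of 96.2% of section genes lie within 100 bases of the mm10 annotation (GENCODE vM21), against 3.71% of culture genes, so culture tables use another build and no culture position is given. The files hold no counts, so depth is unknown and no counting interval is given.

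Values below 1e-06 FPKM were set to 0. On the log2(FPKM + 1) scale, limma 3.58.1 (R 4.3.3) tested those genes whose libraries in the comparison averaged 1 FPKM or more, with a trended prior, two-sided tests, Benjamini-Hochberg adjustment over all genes and a threshold of 0.05. This scale understates changes of low genes. A filter on means lets a gene pass through 1 high group. Layer was a numeric term between genotypes, and pairs of 1 genotype and layer were a block between regions. Paralogue ratios were compared by exact two-sided permutation (scipy 1.17.1), adjusted over 4 ratios. Groups came from the labels, and 3 sections whose labels name different regions were left out. The members and the gene lists were chosen with earlier results of these data known. Named are 9 fixed members in every comparison (Ep300, Crebbp, Med1, Med12, Med13, Med14, Cdk8, Cdk19, Ccnc), members past the threshold and, where under 3 passed, the 3 largest changes each way at an unadjusted p under 0.05. From each related list at most 4 genes past the threshold are named, those with the largest changes. Genes outside this rule (Med17 in mesoderm and in both regions, Med19 between regions, Med21, Med10 in anterior epiblast, Brd3, Supt5) were chosen after their values were seen. Alternatives were another pseudocount, no filter, 2 scalings, a prior without trend, a replicate block, other treatments of layer and of conflicting sections, changes relative to the chromosome, and each library left out. The scripts were checked on made-up tables with planted changes. Whether the counting used strand is not given in the sources used here.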

Additional observations from a re-analysis of the deposited data

Results flagged for a closer look

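There are 105 sets of values that 1 member has in heterozygous streak, homozygous streak or homozygous mesoderm. Those with a value of 1 FPKM or more were examined for a section far from the others, on log2(FPKM + 1). Sets under 1 FPKM throughout were not examined, so the sets examined are fewer than 105. In 9 sets the highest or lowest section stood apart by more than Dixon's 95% limit, and chance alone flags about 1 examined set in 20. In heterozygous streak layer 7, Ep300 was high at 3.30 FPKM (others 0.923 to 1.44) and Med30 low at 2.61 FPKM (others 9.21 to 14.9). In heterozygous streak layer 11, Med13 was low at 0.312 FPKM (others 1.42 to 1.96), and Med22, the head partner of Med11, was listed at 0 (others 4.10 to 8.48 FPKM). In heterozygous streak layer 5, Med18 was high at 9.09 FPKM (others 1.17 to 2.45). In homozygous mesoderm layer 3, Med19 was low at 4.73 FPKM (others 9.21 to 11.3) and Med27 low at 0.172 FPKM (others 2.21 to 3.58). In homozygous mesoderm, Med21 was low in layer 5 at 9.13 FPKM (others 14.6 to 16.7) and Med31 low in layer 7 at 1.27 FPKM (others 3.77 to 5.42). Heterozygous streak layer 11 had the fewest genes at 1 FPKM of all sections (6806). No interaction between genotype and region passed for a member.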

How the results depend on the processing

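Depth is unknown, and the sections limit what can be seen: most members there lie under 20 FPKM and spread widely between sections. Between cultures 9 members passed. The count was 4 with a replicate block (same-numbered cultures did not deviate together, r = -0.117, -0.053 and -0.051, so the numbers are not a pairing), 5 relative to the median change of the gene's own chromosome, 5 without genes of chromosomes 1, 8, 14 and 15 (chosen after seeing the data), and 3 to 9 when single cultures were left out. Ep300 turned to -0.059 relative to its chromosome. Under the other alternatives run between cultures the count lay within 1.5 times of 9. With a common sum without Yam1 and mitochondrial RNA, Cdk8 and Ep300 no longer passed (log2 changes 0.31 and 0.29). In cultures Yam1 took 0% and mitochondrial RNA 0.328% to 0.637% of FPKM. The total of FPKM, which this setting makes equal, was 559513 to 582184 in knock-in and 502990 to 527295 in wild-type cultures. Between genotypes no member passed under the alternatives run in streak. In mesoderm and in both regions, leaving out single sections gave 0 to 1 members. With layer as a replicate block 0 members passed in streak, in mesoderm and in both regions. Between mesoderm and streak 2 members passed. The count was 1 with a pseudocount of 0.1, and 0 with no filter on low values, scaled by the median ratio, with a common sum without Yam1 and mitochondrial RNA, with a prior without a trend, and without heterozygous pairs 11 and 7 (chosen after seeing the data). It was 6 with no replicate block, and 0 to 2 when single pairs were left out. In streak the ratio of Med12l to Med12 passed with a pseudocount of 0.1 (difference -1.46), and without single sections it ranged between -0.32 and -0.24. Counts over all genes moved more. They were 2693 to 4316 between cultures (4256 as reported), 0 to 9 in streak (2), 0 to 227 in mesoderm (17), 19 to 835 in both regions (119), 37 to 1723 between regions (788) and 0 to 21 for the layer trend (8). Where no cause is given for a change, the cause was not tested. Scaling by the median ratio moved the share of higher calls between regions to 55.6%, against 6.7% as reported, and between genotypes in both regions to 58.0%, against 90.8%.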

Other observations

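Conflicting labels kept 3 sections out of every comparison. The homozygous one, titled S3 with mesoderm as cell type, had 0.406 FPKM of Ep300, 8.02 of Crebbp, 7.26 of Cdk8, 51.4 of Med10 and 7.16 of Ccnc. The heterozygous one titled M3, with streak as cell type, had 1.07 FPKM of Ep300, 1.00 of Crebbp, 0.713 of Cdk8, 25.4 of Med10 and 1.34 of Ccnc. The heterozygous one titled M7, also with streak as cell type, had 1.16 FPKM of Ep300, 1.66 of Crebbp, 1.65 of Cdk8, 17.8 of Med10 and 1.69 of Ccnc. Crebbp exceeded Ep300 in 2 of the 3, with log2 ratios between -0.05 and 2.68. Med12 reached at most 0.122 FPKM in them and Med28 lay between 20.1 and 81.8 FPKM.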
